A study of Mus musculus with 24 samples.

Results

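The input-corrected biopsy difference asks whether H3K9me2, measured against input chromatin of the same biopsy, differed between the area at risk and the remote myocardium of preconditioned mouse hearts. It was followed here over broad stretches of the genome, in windows of 1 Mb. Counts of all listed autosomal regions were summed by the megabase in which each region starts, and windows with a mean of 50 or more reads per library were kept. This left 1430 of 1828 autosomal windows, which hold 52533 of 53224 autosomal regions and 99.2% of the autosomal reads; 162 regions on the sex chromosomes were not used. No measured difference entered the choice of windows. Each window sums listed regions only, a median of 19 regions and 48.3 kb of its megabase, and 38.8% of autosomal regions overlap another.

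The mice were C57BL6, 3 female and 3 male, all aged 12 months, and all 6 had gone through ischemic preconditioning, 4 cycles of 5 min of coronary occlusion and 5 min of reperfusion with 30 min of reperfusion at the end. From each heart a biopsy of the area at risk (AAR), the tissue fed by the occluded artery, and one of the remote myocardium (RM) gave an H3K9me2 ChIP-seq library and an input library each. The 4 groups of 6 libraries are thus AAR H3K9me2, RM H3K9me2, AAR input and RM input, and a mouse number stands for 1 animal in all 4. Sham-operated hearts were not analysed here, so the remote tissue of the same preconditioned heart is the comparator, and that tissue too had been through the operation.

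H3K9me2, the dimethylation of histone H3 at lysine 9, is a mark of silenced euchromatin written mainly by the partner methyltransferases G9a (gene Ehmt2) and GLP (gene Ehmt1) and removed by demethylases of the KDM3 and KDM4 families. It covers broad domains, often at gene-poor, silent and lamina-attached chromatin, and is low around active promoters, which in mammals are often rich in the dinucleotide CG. Sums over wide windows follow such domains with many more reads than single regions hold.

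Promoters from 4 windows are printed as examples of CG content, since windows higher and lower than input differed in it. All 4 hold 10 or more CG, so these promoters do not represent promoters at large. They come from the windows of smallest p on each side of the biopsy difference (Mutyh, Chat) and from the windows of lowest and highest mean ratio of H3K9me2 to input over the biopsies (Mob3a, Dennd2d), the last pair chosen after these values were seen. Each is 300 bases, from 250 before to 50 after the gene start in RefSeq (GRCm38.p6), on the strand of the gene, with CG in capitals; CG reads the same on both strands. Mutyh encodes a DNA glycosylase of oxidative damage repair (chr4:116807484-116807783, plus strand), Chat choline acetyltransferase (chr14:32465860-32466159, minus strand), Mob3a a MOB kinase adaptor (chr10:80701771-80702070, minus strand) and Dennd2d a DENN domain protein (chr3:106482181-106482480, plus strand).
Mutyh: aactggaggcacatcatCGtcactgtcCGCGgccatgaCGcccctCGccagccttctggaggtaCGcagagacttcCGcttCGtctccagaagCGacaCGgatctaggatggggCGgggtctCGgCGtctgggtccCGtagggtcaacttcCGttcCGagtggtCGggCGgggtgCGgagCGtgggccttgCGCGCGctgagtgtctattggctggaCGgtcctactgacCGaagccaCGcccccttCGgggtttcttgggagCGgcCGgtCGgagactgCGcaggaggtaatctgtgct
Chat: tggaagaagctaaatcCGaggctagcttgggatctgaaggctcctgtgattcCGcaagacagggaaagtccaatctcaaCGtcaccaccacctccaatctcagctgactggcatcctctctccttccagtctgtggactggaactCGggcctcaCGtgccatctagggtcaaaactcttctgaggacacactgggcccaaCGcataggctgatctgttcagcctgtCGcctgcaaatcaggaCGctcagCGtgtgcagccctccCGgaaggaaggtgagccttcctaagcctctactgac
Mob3a: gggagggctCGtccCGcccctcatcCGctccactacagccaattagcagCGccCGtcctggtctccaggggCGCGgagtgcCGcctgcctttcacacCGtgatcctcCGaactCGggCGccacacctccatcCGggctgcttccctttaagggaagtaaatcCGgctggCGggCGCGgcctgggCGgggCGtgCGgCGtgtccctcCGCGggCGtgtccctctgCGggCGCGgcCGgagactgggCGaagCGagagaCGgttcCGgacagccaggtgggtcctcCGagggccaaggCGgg
Dennd2d: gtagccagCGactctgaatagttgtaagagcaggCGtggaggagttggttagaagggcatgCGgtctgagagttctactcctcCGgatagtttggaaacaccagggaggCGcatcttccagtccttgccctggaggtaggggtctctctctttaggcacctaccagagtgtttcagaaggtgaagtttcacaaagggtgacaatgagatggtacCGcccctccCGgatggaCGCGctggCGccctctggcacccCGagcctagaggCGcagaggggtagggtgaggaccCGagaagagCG
The motif occurs 31 times in the Mutyh promoter, 10 times in that of Chat, 34 times in that of Mob3a and 14 times in that of Dennd2d. Of all 32851 promoters of this length in the table, 43.5% held 10 or more CG. The listed region over the Mob3a promoter had 19.96, 24.01 and 45.7 CPM (reads scaled to the normalised library total; lowest, median and highest of 6 mice) for H3K9me2 of the AAR and 14.5, 23.5 and 36.0 for H3K9me2 of the RM. Its inputs had 51.2, 56.4 and 59.1 CPM in the AAR and 52.0, 66.4 and 76.9 in the RM. In each biopsy every H3K9me2 library lay below every input library there, and the ranges of the biopsies overlapped for both kinds of library. Over the Chat promoter H3K9me2 had 27.7, 36.8 and 53.2 CPM in the AAR and 25.3, 37.4 and 41.7 in the RM, and input 24.4, 29.1 and 31.4 CPM in the AAR and 25.2, 27.3 and 41.1 in the RM, so H3K9me2 and input overlapped in each biopsy. They overlapped over the Dennd2d promoter too, although its window is the one of highest mean ratio: H3K9me2 had medians of 11.4 CPM in the AAR and 14.0 in the RM, and input 11.6 in the AAR and 11.8 in the RM.

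Reads in the kept windows ran from 412496 to 1186911 per H3K9me2 library of the AAR, from 438689 to 971984 per H3K9me2 library of the RM, from 1273874 to 2461283 per input of the AAR and from 1394075 to 1756184 per input of the RM. Mouse 23 stood apart. Its AAR gave the deepest H3K9me2 library and the deepest input of all. On the first principal component of the window values (65.6% of the variance), which separated H3K9me2 from input libraries, its H3K9me2 library of the AAR lay at -0.033, against 0.074 to 0.26 for the other 5 mice. Its H3K9me2 library of the RM lay at 0.25, against 0.070 to 0.16 for the others. Results are therefore given with and without this mouse, and what sets its libraries apart was not tested. Windows were scaled to the reads in listed regions, so a change of the mark alike in all windows could not be seen.

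No window passed the test between the biopsies once input was taken into account. edgeR's quasi-likelihood test with Benjamini-Hochberg adjustment called 0 of 1430 windows (0%) at a false discovery rate (FDR) of 0.05, and the smallest adjusted p was 0.963. At an unadjusted p under 0.05 there were 46 windows, 12 higher and 34 lower in the AAR; DESeq2 called 0 with 19 at that level and limma on 1 value per mouse called 0 with 13. Without mouse 23 the edgeR count was also 0, the smallest adjusted p being 0.998, and 55 windows had an unadjusted p under 0.05. H3K9me2 of the AAR set directly against that of the RM gave 0 calls (0%), with 46 windows at an unadjusted p under 0.05, and the inputs of the AAR against those of the RM gave 0 (0%), with 23. DESeq2 called 0 for H3K9me2 and 0 for input, with 23 and 11 windows at that level. Without mouse 23 the H3K9me2 comparison gave 0 calls with 82 windows at an unadjusted p under 0.05 (smallest edgeR adjusted p = 0.0713), and the input comparison gave 2 calls with 211 (smallest edgeR adjusted p = 0.0357). In tissue of several cell types a different cell makeup and a different level of the mark per cell cannot be told apart.

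The intervals show how large a difference these tests leave room for. The log2 difference, AAR minus RM, had a median of 0.00037 over the windows with 719 above and 711 below 0, and ran from -0.47 to 0.27. Its median standard error (SE) was 0.078, from 0.041 to 0.30. The 95% interval lay within ±0.25 in 814 windows (56.9%), within ±0.5 in 1332 (93.1%) and within ±1 in all 1430 windows kept. For scale, windows called against input in the AAR had medians of 0.27 on the higher side and -0.25 on the lower side. Differences of that size were not excluded in windows with wider intervals. Across the 6 mice, 15 windows were above 0 in every mouse and 22 below 0 in every mouse, together 2.59% of the windows. Were each mouse equally likely to lie on either side, a share of 0.03125 of windows would have 1 sign in all mice. The edgeR p-values and intervals rest on the spread left among all 24 libraries after group and mouse effects, with information shared across windows. They are not built from 1 value per mouse, as the limma p-values are.

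Each biopsy taken alone held a pattern of H3K9me2 along the chromosomes, and the calls were largely shared by both. In the AAR edgeR called 807 windows (56.4%) against input, 430 higher (30.1%) and 377 lower (26.4%). In the RM it called 957 (66.9%), 537 higher (37.6%) and 420 lower (29.4%). Windows higher than input in both numbered 398, which is 92.6% of those of the AAR and 74.1% of those of the RM, and windows lower in both numbered 352, which is 93.4% of those of the AAR and 83.8% of those of the RM. None was called in opposite directions. Without mouse 23 the AAR had 843 calls, 447 higher and 396 lower, and the RM 914, 491 higher and 423 lower. Scaling by library totals alone moved the median window by 0.11 on the log2 scale in the AAR and by 0.14 in the RM, and gave 748 higher and 229 lower in the AAR and 822 higher and 243 lower in the RM; directions against input are therefore read relative to the median window.

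**Figure D1:**
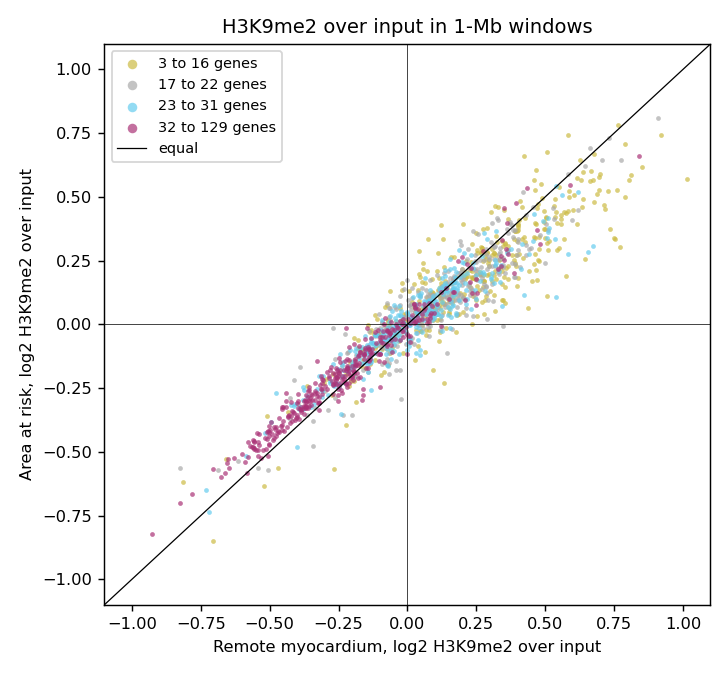
Log2 H3K9me2 over input in the AAR (vertical) and in the RM (horizontal), 1 point per window over 1430 windows. The points follow one diagonal from about -0.9 to 1.0, and none was called in opposite directions.

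Over the 1430 windows the log2 ratio to input in the AAR and that in the RM correlated at r = 0.951 (Spearman's rho 0.951); the points are windows, they share gene content and read depth, and the H3K9me2 and input libraries are distinct for each biopsy. Called windows of the AAR had medians of 0.27 on the higher side and -0.25 on the lower side, and those of the RM 0.30 on the higher side and -0.26 on the lower side. The SD over windows was 0.25 in the AAR and 0.30 in the RM. Between mice, the ratio to input correlated over windows at 0.56 to 0.79 in the AAR and at 0.77 to 0.83 in the RM over the 15 pairs of mice. The input-corrected biopsy difference correlated at -0.23 to 0.17 over those pairs, with a median of 0.0027.

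The SD over windows of log2 H3K9me2 over input, with the counting variance subtracted, was 0.29, 0.34, 0.25, 0.21, 0.22 and 0.26 in the AAR and 0.27, 0.29, 0.28, 0.37, 0.28 and 0.25 in the RM, in mice 17, 19, 22, 23, 27 and 30. The AAR had the larger spread in 3 mice, the females 17, 19 and 30, and the smaller in 3, the males 22, 23 and 27. The widest gap was that of mouse 23, and a difference by sex was not tested for this spread. Means were 0.263 ± 0.050 in the AAR and 0.291 ± 0.039 in the RM (SD, n = 6), a difference of -0.028 with a 95% interval of -0.11 to 0.050 and a two-sided exact sign-flip p of 0.4375. Without mouse 23 the difference was -0.0019.

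H3K9me2 over input followed gene content in both biopsies. Windows with 3 to 16 annotated genes, the class with fewest of 4, averaged 0.183 ± 0.041 in the AAR and 0.224 ± 0.030 in the RM on the log2 scale (SD, n = 6). Windows with 32 to 129 genes, the class with most, averaged -0.185 ± 0.059 in the AAR and -0.213 ± 0.038 in the RM. In between, windows of 17 to 22 genes averaged 0.092 in the AAR and 0.11 in the RM, and those of 23 to 31 genes 0.0091 in the AAR and 0.017 in the RM. The calls had the same order. Of 393 gene-poor windows 180 were higher and 23 lower than input in the AAR, and 230 higher and 25 lower in the RM. Of 358 gene-rich windows 30 were higher and 238 lower in the AAR, and 36 higher and 252 lower in the RM. By library totals alone the gene-rich windows had 77 higher and 176 lower in the AAR, and 81 higher and 183 lower in the RM. Over all 1430 windows the gene count and the ratio to input correlated at rho = -0.57 in the AAR and -0.58 in the RM, across windows that share libraries and depth.

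CG content of the promoters was lower in windows with more of the mark. In windows higher than input in both biopsies 35.3% of promoters held 10 or more CG, with a median of 6 per promoter and a median of 18 genes per window. In windows lower in both it was 56.7%, with medians of 13 CG and 37 genes, and in windows called in neither biopsy 45.4%. The Mutyh and Mob3a promoters, in windows lower in both biopsies, and the Dennd2d promoter, in a window higher in both, lie above the median of their class of windows. That of Chat, whose window was called in the RM only, holds 10 CG, against a median of 9 over promoters of all kept windows. No genome sequence was used beyond these promoters, so the base composition of the windows was not tested.

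**Figure D2:**
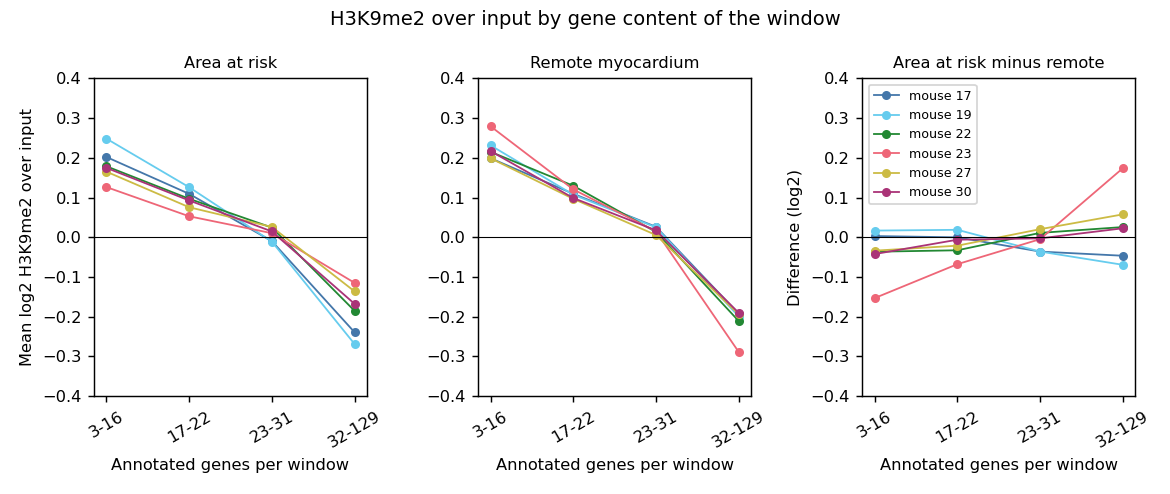
Mean log2 H3K9me2 over input by class of gene count (393, 337, 342 and 358 windows), in the AAR, the RM and their difference, with 1 line or point per mouse. Both biopsies descend from about 0.2 in gene-poor to about -0.2 in gene-rich windows, while the differences of single mice lie on both sides of 0.

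The step between gene-rich and gene-poor windows gives 1 value per mouse and biopsy. It was -0.44, -0.52, -0.36, -0.24, -0.30 and -0.34 in the AAR and -0.39, -0.43, -0.43, -0.57, -0.39 and -0.41 in the RM, in mice 17, 19, 22, 23, 27 and 30. Mouse 23 had the shallowest step of all in its AAR and the steepest of all in its RM. All 6 mice were below 0 in each biopsy (two-sided exact sign-flip p = 0.03125 for each, the smallest that 6 mice allow). The step averaged -0.368 ± 0.099 in the AAR and -0.436 ± 0.067 in the RM (SD, n = 6). The difference of 0.068 had a 95% interval of -0.084 to 0.22 and an exact sign-flip p of 0.3125. It was positive in 4 of 6 mice, males 22, 23 and 27 and female 30, and negative in females 17 and 19. Without mouse 23 it was 0.017, so the size of this difference rests on 1 animal. Leaving out any other mouse gave 0.064 to 0.099.

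The input-corrected difference also moved with the number of reads in a window, over 4 classes of increasing depth that held medians of 15, 20, 25 and 34 annotated genes per window. In the 411 windows under 200 reads per library its median was -0.059 with 34.1% above 0, from 200 to 500 reads it was -0.030 with 35.5% above 0, from 500 to 1000 reads -0.0019 with 47.8%, and in the 390 windows of 1000 or more it was 0.042 with 82.8% above 0. The mice did not share this slope. In the deepest windows the mean difference in females was -0.047 in mouse 17, -0.060 in mouse 19 and 0.028 in mouse 30. In males it was 0.045 in mouse 22, 0.18 in mouse 23 and 0.070 in mouse 27. In the shallowest windows it was -0.16 in mouse 23, and it lay between -0.069 and 0.0012 in the other 5. These bins were chosen after the values were seen and carry no test. The median standard error was 0.15 under 200 reads and 0.063 at 1000 or more.

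**Figure D3:**
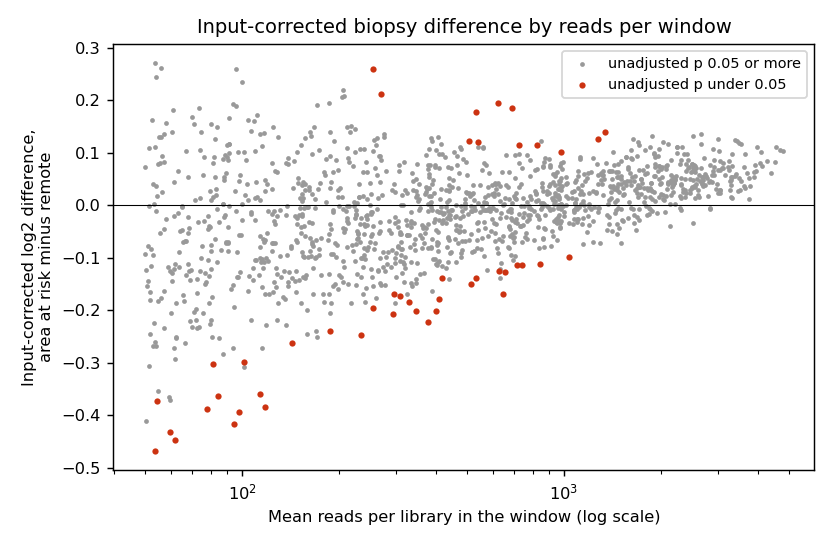
Input-corrected biopsy difference (log2, vertical) by mean reads per library (log axis, horizontal) for 1430 windows. The cloud narrows as reads increase, from an SD of 0.13 in windows under 200 reads to 0.042 at 1000 or more, and no window passed the test.

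At the limit of 50 reads, the windows just inside were chromosome 4 from 89 to 90 Mb and chromosome 9 from 7 to 8 Mb, each with a mean of 50.1 reads, at mean differences of -0.11 (SD 0.30) and 0.053 (SD 0.45) over the mice. Just outside were chromosome 18 from 42 to 43 Mb with 49.3 reads at -0.18 (SD 0.22) and chromosome 11 from 112 to 113 Mb with 49.2 reads at 0.22 (SD 0.49).

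The windows of smallest p on the higher side of the AAR are described next, none of them called (each edgeR adjusted p = 0.963). Windows on both sides were chosen by this p. Their intervals, counts of mice on 1 side and signs of regions thus follow in part from the choice and are no separate support. First on the higher side was chromosome 4 from 116 to 117 Mb, the window of Mutyh, of Pomgnt1, a glycosyltransferase acting on dystroglycan, and of Tspan1, a tetraspanin. H3K9me2 there had 534, 545 and 616 CPM (lowest, median and highest) in the AAR and 457, 529 and 557 in the RM. Input had 559, 625 and 651 CPM in the AAR and 609, 642 and 676 in the RM. The ranges of the biopsies overlapped for both kinds of library, with H3K9me2 set somewhat higher and input somewhat lower in the AAR. The difference was 0.18 on the log2 scale (SE 0.058, 95% interval 0.066 to 0.30), above 0 in 6 of 6 mice, from 0.014 in mouse 27 to 0.39 in mouse 23. It was 0.14 without mouse 23. The unadjusted p was 0.0035 by edgeR and 0.077 by limma on 1 value per mouse. Of 28 regions with enough reads to take a sign, 19 lay above 0.

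Next came chromosome 13 from 38 to 39 Mb, with Txndc5, a disulfide isomerase of the endoplasmic reticulum, Bmp6, a bone morphogenetic protein, and Snrnp48, a protein of the minor spliceosome. Its H3K9me2 had 459, 493 and 578 CPM in the AAR and 424, 468 and 490 in the RM, and its input 427, 449 and 462 CPM in the AAR and 433, 464 and 495 in the RM. The difference was 0.18 (SE 0.066), above 0 in 6 of 6 mice and 0.20 without mouse 23. Here the mice lay close together, between 0.070 and 0.27.

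The window of Tns1, a focal adhesion protein that binds actin, at chromosome 1 from 73 to 74 Mb, was among those most depleted of the mark, at -0.62 against input in the AAR and -0.81 in the RM. H3K9me2 had 331, 381 and 452 CPM in the AAR and 318, 365 and 419 in the RM, and input 552, 593 and 655 CPM in the AAR and 606, 627 and 693 in the RM. The difference of 0.19 (SE 0.076) was above 0 in 5 of 6 mice, mouse 19 lying at -0.13. It was 0.17 without mouse 23, and 0.12 with only regions that overlap no other. Part of it came from the inputs, which differed by -0.10 over all mice. Without mouse 23 the input of this window passed the test at -0.16 (SE 0.036, edgeR adjusted p = 0.0357), 1 of 2 windows whose input was called there.

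The other windows on this side had differences from 0.10 to 0.14. They hold Mtss1, an actin- and membrane-binding protein (chromosome 15, 58 to 59 Mb), Adamts2, a procollagen N-proteinase, with Maml1, a Notch coactivator (chromosome 11, 50 to 51 Mb), and Hivep3, a zinc finger transcription factor, with P3h1, a prolyl hydroxylase of collagen (chromosome 4, 119 to 120 Mb). Rdh13, a mitochondrial retinol dehydrogenase, and Ppp1r12c, a myosin phosphatase subunit, lie at chromosome 7 from 4 to 5 Mb, together with the cardiac troponin I gene Tnni3. Prkag2, a regulatory subunit of AMP-activated kinase, and Kmt2c, a histone H3 lysine 4 methyltransferase, lie at chromosome 5 from 25 to 26 Mb. The last pair of windows were above 0 in 6 of 6 mice, the first 3 in 5 of 6.

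Among windows lower in the AAR, chromosome 14 from 32 to 33 Mb, with Galnt15, an enzyme of mucin-type glycosylation, and Chat, had the smallest p. H3K9me2 had 516, 575 and 629 CPM in the AAR and 603, 630.0 and 664 in the RM. Input had 542, 549 and 563 CPM in the AAR and 520, 535 and 580 in the RM. Most H3K9me2 libraries of the AAR lay below those of the RM, with overlap at the edges, while the inputs overlapped throughout. The difference was -0.17 (SE 0.048, 95% interval -0.27 to -0.072), below 0 in 5 of 6 mice, with mouse 19 at 0.021 and mouse 22 at -0.44. It was -0.16 without mouse 23, and 6 of 23 regions lay above 0. The window was higher than input in the RM (0.23, edgeR adjusted p = 1.084e-06), whereas the ratio in the AAR was 0.061 and did not pass (edgeR adjusted p = 0.126); the difference between them is the quantity tested here.

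Tenm4, a teneurin that spans the membrane and guides cell contacts, lies at chromosome 7 from 96 to 97 Mb. Its H3K9me2 had 351, 410 and 482 CPM in the AAR and 371, 430 and 462 in the RM, and its input 267, 314 and 338 CPM in the AAR and 260.0, 278 and 290.3 in the RM. The H3K9me2 ranges covered each other, and the inputs of the AAR reached higher. The difference was -0.22 (SE 0.077), below 0 in 6 of 6 mice from -0.31 to -0.12, and -0.20 without mouse 23. Without that mouse the input difference of this window was 0.21 (SE 0.048, edgeR adjusted p = 0.0357), the other of the 2 inputs called.

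Grk5, a kinase of G protein-coupled receptors abundant in heart, lies at chromosome 19 from 61 to 62 Mb, in a shallow window of 77.6 reads per library. H3K9me2 had 60.3, 81.9 and 94.8 CPM in the AAR and 77.4, 83.8 and 90.4 in the RM. Input had 62.3, 65.7 and 75 CPM in the AAR and 50.8, 54.0 and 59.0 in the RM. The H3K9me2 ranges overlapped and the inputs did not, every input of the AAR lying above every input of the RM, in a contrast where 0% of windows were called. The difference was -0.39 (SE 0.14), below 0 in 6 of 6 mice, and -0.26 without mouse 23, which had the lowest value at -0.89.

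Chromosome 2 from 146 to 147 Mb, with Ralgapa2, a GTPase-activating subunit for Ral, Cfap61, a protein of cilia, and Kiz, a centrosomal protein, had a difference of -0.38 (SE 0.13), below 0 in 6 of 6 mice, and -0.41 without mouse 23. Between the biopsies its input differed by 0.27, higher in the AAR, and its H3K9me2 by -0.11. Ltbp1, which binds latent TGF-beta, lies at chromosome 17 from 75 to 76 Mb at -0.39 (SE 0.16), with mouse 30 at -0.87 and mouse 22 at 0.043, and at -0.37 without mouse 23. The other 3 windows lay between -0.15 and -0.11 and hold Uspl1, a SUMO isopeptidase, Fryl, a furry homologue, and Marchf6, a ubiquitin ligase of the endoplasmic reticulum. The Uspl1 window lay at -0.065 without mouse 30. The Marchf6 window was below 0 in 6 of 6 mice, and lay at -0.075 with only regions that overlap no other. The shallow windows of Grk5, Ralgapa2 and Ltbp1 had 3 to 6 regions with enough reads to take a sign, none above 0.

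**Figure D4:**
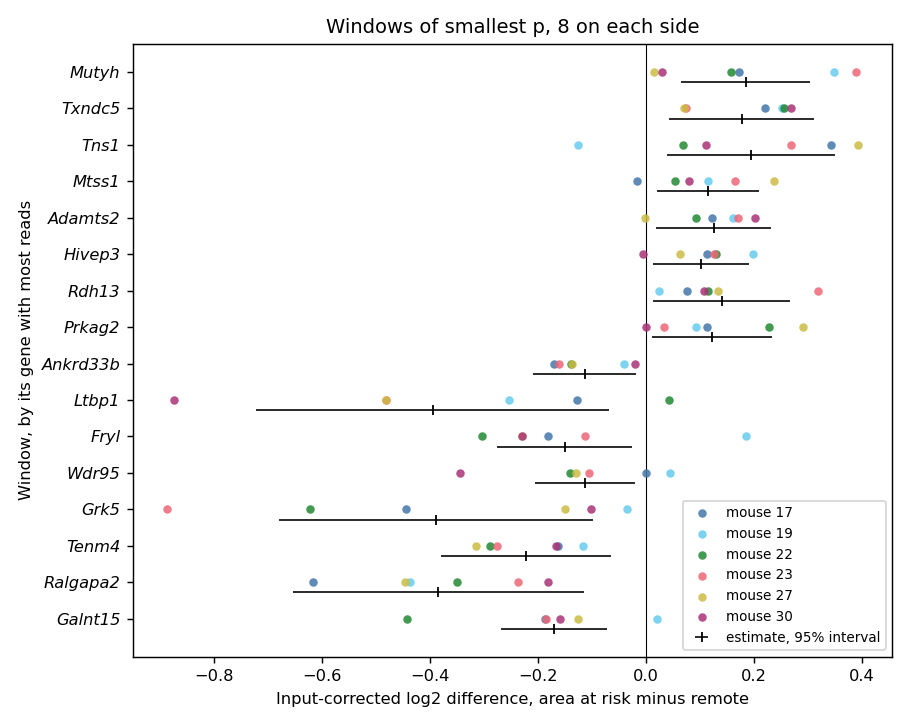
Input-corrected biopsy difference (log2) of each mouse in the 8 windows of smallest p on the higher side and the 8 on the lower side. Values of single mice ran from -0.89 to -0.036 in the shallow window of Grk5 and from -0.31 to -0.12 in the deeper one of Tenm4. Deeper windows could also spread widely, as that of Tns1 did (-0.13 to 0.39), and none of the 16 windows was called.

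Windows of 6 genes chosen by name were not called either. Mtor, the kinase of both mTOR complexes, shares its window at chromosome 4 from 148 to 149 Mb with Casz1, a cardiac zinc finger factor, and with Nppa, the atrial natriuretic peptide gene. H3K9me2 had 1800.0, 2083 and 2562 CPM in the AAR and 1936, 2106 and 2219 in the RM, and input 2473, 2637 and 2836 CPM in the AAR and 2575, 2714 and 2769 in the RM. The biopsies overlapped for both kinds of library, and the AAR had the wider range in each. The difference was 0.044 (SE 0.082, 95% interval -0.12 to 0.21), above 0 in 3 of 6 mice, and -0.0017 without mouse 23. The window was lower than input in both biopsies, at -0.33 in the AAR and -0.37 in the RM.

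Ehmt1 and Ehmt2, the genes of the enzymes that write the mark, had differences of 0.039 (SE 0.079, chromosome 2, 24 to 25 Mb) and 0.075 (SE 0.074, chromosome 17, 34 to 35 Mb). The Ehmt2 window, in the gene-dense major histocompatibility region, was lower than input at -0.36 in the AAR and -0.43 in the RM, and the Ehmt1 window was near input at 0.042 in the AAR and 0.0027 in the RM. The window of Cd276, an immune checkpoint ligand, had a difference of 0.015 (SE 0.051) and that of Camta2, a transcription coactivator of cardiomyocytes, 0.13 (SE 0.076), which was 0.075 without mouse 23. Midn, the gene of the proteasome cofactor midnolin, lies in the window most depleted in the RM, chromosome 10 from 80 to 81 Mb, at -0.82 in the AAR and -0.93 in the RM. Its difference was 0.11 (SE 0.12), 0.023 without mouse 23, 0.061 without mouse 27 and 0.18 without mouse 19.

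That chromosome 10 window, chosen for its values, holds 224 listed regions and 68 annotated genes, with Sbno2, Gng7 and Mob3a having most reads. At the other end was the window at chromosome 3 from 106 to 107 Mb, with the chitinase-like gene Chil4, the chitinase gene Chia1 and Dennd2d. This window lay at 0.81 in the AAR and 0.91 in the RM over 7 regions. Its H3K9me2 had 197, 291 and 438 CPM in the AAR and 268, 308 and 408 in the RM, against inputs of 127, 167 and 214 CPM in the AAR and 150, 173 and 187 in the RM. Its biopsy difference was -0.10 (SE 0.17), with 2 of 6 mice above 0. Kcnma1, a calcium-activated potassium channel, and Dab1, a reelin adaptor of neurons, lie in other strongly enriched windows, at 0.74 and 0.57 in the AAR and 0.92 and 1.02 in the RM. Both windows were also chosen for their values and are shallow, near the limit of 50 reads. That of Kcnma1 holds 1 listed region with 56.1 reads per library, and that of Dab1 holds 2 regions with 61.9 reads.

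Gene lists were described by the distinct windows that hold their genes; each such window holds many other genes, and a window says nothing of the RNA of a gene in it. No list had a window called for the biopsy difference, where 0% of all windows were called. Its median ran from -0.065 over 6 windows of fibroblast markers to 0.056 over 5 windows of the Hox clusters, against 0.00037 over all 1430 windows. All 5 Hox windows were above 0, and 3 of them with scaling by library totals alone. In the 18 windows of sarcomere and calcium-handling genes the median was 0.047 with 15 above 0 and 1 at an unadjusted p under 0.05, that of Tnni3. Scaled by library totals alone, 11 of these 18 were above 0. Of all 1430 windows 719 were above 0 by TMM scaling and 530 by library totals alone. Of the 358 gene-rich windows 267 were above 0 by TMM scaling and 221 by library totals alone. A majority above 0 is thus also seen in gene-rich windows at large.

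Immediate early and stress genes, which are transcribed within minutes of a stimulus, had a median difference of 0.023 over 21 windows. The window of Nr4a3, an orphan nuclear receptor of that class at chromosome 4 from 48 to 49 Mb, had the smallest p among them, with a difference of -0.30 (SE 0.15, edgeR adjusted p = 0.963). It was lower than input at -0.57 in the AAR and -0.27 in the RM. Hypoxia-response genes had a median of 0.013 over 16 windows, with that of Egln3, an oxygen-sensing prolyl hydroxylase, at -0.17 and that of Slc2a1, a glucose transporter, at 0.10. The 16 windows of mTOR complex genes and regulators had 0.044, with Ddit4, an inhibitor of mTOR complex 1 induced by stress, at 0.083. Autophagy genes had 0.036 over 17 windows, oxidative phosphorylation genes 0.052 over 16 and H3K9 methyltransferases and demethylases 0.0034 over 13. Housekeeping genes lay at -0.0095 over 13 windows, germ line genes at 0.0053 over 9 and neuronal genes at 0.0082 over 4, both silent in heart. By library totals alone, where the median of all windows was -0.028, the medians of the immediate early (-0.0014), hypoxia (-0.016), H3K9 enzyme (-0.034), germ line (-0.020), neuronal (-0.018) and leukocyte (-0.0067) windows lay below 0.

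Against input, 26.4% of all windows were lower in the AAR and 29.4% in the RM, and of the 358 gene-rich windows 66.5% in the AAR and 70.4% in the RM. Of 21 immediate early windows 16 were lower in the AAR and 16 in the RM, with 12 and 12 by library totals alone. Leukocyte marker windows were lower in 9 of 10 in the AAR and 8 of 10 in the RM, with 4 and 5 by library totals alone. The 5 Hox windows were lower in both biopsies, with 3 in each by library totals alone; the Hox clusters are known as targets of Polycomb silencing. Oxidative phosphorylation windows were lower in 11 of 16 in the AAR and 10 of 16 in the RM (8 and 8 by library totals alone), and mTOR windows in 10 of 16 in each (10 and 10). Of 17 autophagy windows 9 were lower in the AAR and 10 in the RM (5 and 7), of 13 windows of H3K9 enzymes 7 in each (3 and 3) and of 13 housekeeping windows 7 in each (6 and 6). Whether any list differs from windows of like gene content was not tested. Genes of 1 family lay on both sides. The window of Jund, an AP-1 subunit, lay at -0.56 in the AAR and -0.65 in the RM, whereas that of Jun, another AP-1 subunit, was higher than input at 0.41 in each biopsy, and that of Klf4, a zinc finger factor, at 0.34 in the AAR and 0.38 in the RM.

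Cardiomyocyte genes lay on both sides of input, as windows in general did (30.1% higher and 26.4% lower in the AAR, 37.6% higher and 29.4% lower in the RM). Of their 18 windows 7 were higher and 8 lower in the AAR, and 7 higher and 9 lower in the RM, with 9 higher and 8 lower in each by library totals alone. Those of Ryr2, the calcium release channel, and Ttn, the giant sarcomere spring, were on the higher side, at 0.41 and 0.20 in the AAR and 0.33 and 0.27 in the RM. Those of Myh6 and Myh7, neighbouring genes of myosin heavy chains, and Atp2a2, which pumps calcium back into the sarcoplasmic reticulum, were on the lower side, at -0.32 and -0.25 in the AAR and -0.37 and -0.36 in the RM. The windows of the first pair hold 22 and 13 annotated genes, and those of the second 120 and 34. The label of cardiac tissue cannot be checked from these windows.

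Gene clusters are read beside the same shares of all windows, 30.1% higher and 26.4% lower in the AAR and 37.6% higher and 29.4% lower in the RM, and beside the 748 higher and 229 lower in the AAR and 822 higher and 243 lower in the RM of 1430 by library totals alone. Of the 358 gene-rich windows 8.4% were higher and 66.5% lower in the AAR, and 10.1% higher and 70.4% lower in the RM. Gene content was not matched between the clusters and either set. Of 36 windows with 3 or more odorant receptor genes 4 were higher and 16 lower than input in the AAR, and 4 higher and 19 lower in the RM. By library totals alone these were 6 and 10 in the AAR and 10 and 11 in the RM. Of 31 windows with 3 or more Zfp genes 6 were higher and 18 lower in the AAR, and 6 higher and 19 lower in the RM, and by library totals alone 9 and 11 in the AAR and 9 and 13 in the RM. The median biopsy difference was 0.027 in the odorant receptor windows and 0.026 in the Zfp windows, and by library totals alone both medians were below 0, at -0.0071 and -0.0051. Markers of other cell types had 0.055 over 13 endothelial and mural windows and 0.021 over 10 leukocyte windows.

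By chromosome, the mark followed the same order in both biopsies at its ends. Chromosome 13 stood highest, at a mean over windows of 0.17 in the AAR and 0.20 in the RM, and chromosome 11 lowest, at -0.090 in the AAR and -0.11 in the RM. For the biopsy difference an exact sign-flip permutation test over the 6 mice called 0 of 19 autosomes after Benjamini-Hochberg adjustment, with a smallest adjusted p of 0.297. With 6 mice 1 autosome alone cannot pass: at the smallest possible p its adjusted p would be 0.594, and 12 autosomes would have to share that p, so these 0 calls do not show that chromosomes were alike. Chromosome 6 had the only unadjusted p under 0.05, at -0.023 ± 0.021 (SD, n = 6), below 0 in 6 of 6 mice (exact p = 0.03125, the smallest possible). Chromosome 13 lay at -0.034 ± 0.069, with 3 of 6 mice above 0.

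**Figure D5:**
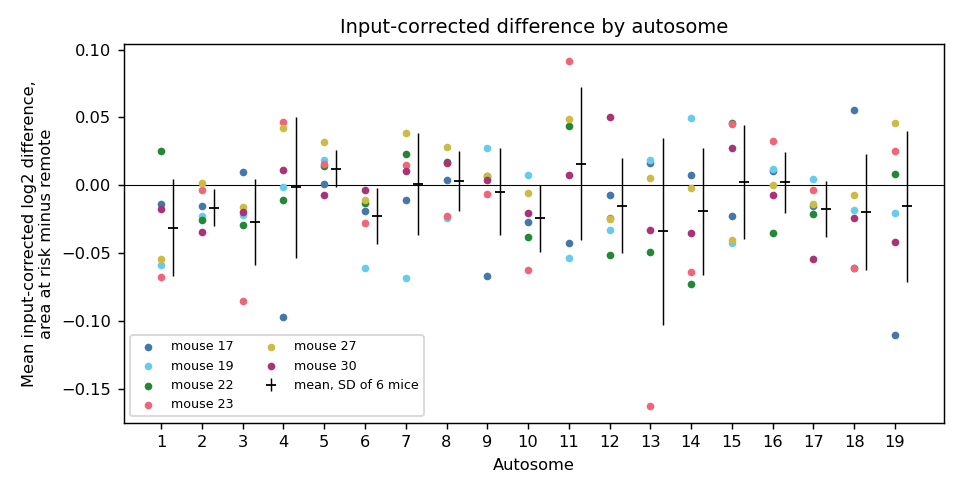
Mean input-corrected biopsy difference (log2) over the windows of each autosome, with 1 point per mouse. All points lie between -0.16 and 0.091, and every autosome except chromosome 6 has mice on both sides of 0.

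Neighbouring windows resembled each other in the mark. Over 1116 pairs of adjacent kept windows the ratio to input correlated at r = 0.32 in the AAR and 0.34 in the RM, and the biopsy difference at r = 0.10; the pairs share libraries, and a region that crosses a boundary counts where it starts. Adjacent windows had the same sign of the difference in 56.7% of pairs, against 60.8% for the AAR over input and 62.1% for the RM over input. The biopsy difference was also compared between the 3 female and 3 male mice. edgeR called 0 of 1430 windows for that interaction, the smallest adjusted p being 0.285. An unadjusted p under 0.05 was found in 146 windows, against 46 for the biopsy difference itself. With 3 mice per sex and mouse 23 among the males, these 0 calls do not show that the sexes were alike. The biopsy difference in spread over windows, given above, also had opposite signs in females and males.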

How the data were processed

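Counts were analysed from 24 ChIP-seq and input libraries. The authors deposited whole-number counts of reads per listed region of build mm10 and library, per the file headers; the 24 columns were taken from the tables that set H3K9me2 against input in each biopsy, and the tables between biopsies, which hold the same columns, were not used. Bowtie2 2.2.2, SICER 1.1 and edgeR are named per the submitters' processing notes; their roles and the treatment of duplicate reads are not given in the sources used here. Overlapping listed regions may share reads.

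Counts were summed into 1 Mb windows, kept at a mean of 50 or more reads, and fitted with edgeR 4.0.16 (R 4.3.3) by TMM scaling, group means, the mouse as a block and the two-sided quasi-likelihood test, with Benjamini-Hochberg adjustment over 1430 windows and an FDR of 0.05. The input-corrected difference is H3K9me2 minus input in the area at risk, minus the same in the remote myocardium, on the log2 scale. CPM values are counts scaled to the TMM-scaled library total. Values per mouse used a pseudocount of 0.5 reads, and exact sign-flip permutation tests ran over 6 mice. DESeq2 1.42.0 and limma 3.58.1 were alternatives, with other scalings, filters, window sizes, blocks and each mouse left out.

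The mouse numbers pair the samples because libraries of 1 number come from 1 animal; deviations of same-numbered libraries from the group means correlated from -0.59 to 0.57 over the pairs of groups. A chi-square test of region counts found a difference between all pairs of libraries within a group (largest p = 0.0208), so each was counted as its own sample. Gene content and promoters came from RefSeq GRCm38.p6, the assembly of mm10. Windows named were the 8 of smallest p on each side and those of Mtor, Ehmt1, Ehmt2, Midn, Cd276 and Camta2, each with up to 3 protein-coding genes of most reads; other genes of a window were added from the lists, and windows at the extremes of the ratio to input were chosen after their values were seen. From each list the 2 windows of smallest p could be named, and further list genes were named after their values were seen. The windows, lists and tests were chosen with earlier results of these data known. Intervals cover counting error and the spread between libraries or mice only.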

Additional observations from a re-analysis of the deposited data

Results flagged for a closer look

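Of 60 groups of 6 mice, 6 had 1 mouse far from the other 5 by Dixon's criterion, which chance gives in about 1 in 20 groups. Mouse 23 accounted for 4. Its gene-rich minus gene-poor step in the RM was -0.5684 on the log2 scale, against -0.43 to -0.39 in the others, and its SD over windows there was 0.3655, against 0.25 to 0.29. Its input-corrected difference was 0.3179 in the chromosome 7 window from 4 to 5 Mb (others 0.023 to 0.13), and -0.1623 on average over chromosome 13 (others -0.049 to 0.018). Mouse 22 had 0.3178 in the Ehmt1 window at chromosome 2 from 24 to 25 Mb (others -0.084 to 0.050). Mouse 17 had a mean of -0.06652 over chromosome 9 (others -0.0061 to 0.027). What sets these values apart was not tested.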

How the results depend on the processing

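The input-corrected difference gave 0 calls under all 19 alternatives, with 13 to 87 windows at an unadjusted p under 0.05 and smallest adjusted p-values of 0.529 to 0.999. With no replicate block there were 0 calls for the difference, 813 for H3K9me2 against input in the AAR and 955 in the RM; a replicate block per biopsy gave 0 for the difference, 878 in the AAR and 990.0 in the RM. Ignoring the mouse numbers changed no call between the biopsies (0 of 19 autosomes, exact permutation p = 0.1905 for the gene-rich step and 0.2987 for the SD over windows). Counts against input moved with the number of windows tested: 1257 in the AAR and 1443 in the RM of 2264 windows of 0.5 Mb, and 491 in the AAR and 574 in the RM of 889 windows of 2 Mb. Leaving out each mouse gave 0 to 2 calls between AAR and RM inputs, the 2 without mouse 23. Of the windows named, 3 turned sign, all near 0: that of Mtor to -0.0017 without mouse 23 (up to 0.071 without another mouse), that of Ehmt1 to -0.0064 without mouse 22 (up to 0.068), and that of Cd276 to -0.014 by library totals only, -0.027 with regions that overlap no other and -0.0040 without mouse 23 (up to 0.047); the cause was not tested. The step with classes from protein-coding genes only, chosen after seeing the data, was 0.073. Shallow windows, with standard errors up to 0.30, limit what can be seen, and windows cover listed regions only.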
